A study of Mus musculus with 2 samples.

Results

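The HOX genes are the homeobox transcription factors that lie in 4 clusters in mouse, Hoxa, Hoxb, Hoxc and Hoxd. They were examined here in ureters of E14.5 embryos labelled as lacking the T-box factors Tbx2 and Tbx3, against control ureters. Members were chosen by gene name alone. A probe counted where the accession given for it in the array files paired with a mouse symbol made of Hoxa, Hoxb, Hoxc or Hoxd and a number. The rule found 39 genes, of which 38 are described here, with 42 probes, out of 32103 gene names on the array. The family was proposed with the ratios of knockout over control already known, so the ratios of its members are given as a description.

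HOX proteins bind DNA as parts of complexes with PBX and MEIS proteins and give cells along the body axis their regional identity. Genes at the same place in the 4 clusters form a paralogue group, and low-numbered groups are expressed further towards the head and earlier than high-numbered ones. Retinoic acid, CDX factors and Polycomb and Trithorax chromatin complexes are known regulators of the clusters. In the urogenital tract the group 9 to 13 genes mark regions of the ducts from front to back. Group 11 genes act in the metanephric mesenchyme, and Hoxa13 and Hoxd13 are known for roles in the bladder, the hindgut and the genital tubercle.

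Ureters came from NMRI embryos at E14.5. Those labelled knockout carried Tbx18(cre/+) together with Tbx2(fl/fl) and with Tbx3(fl/fl). Their Cre is made from the Tbx18 locus, which progenitors of the ureteric mesenchyme express. Controls carried Tbx18(+/+) together with Tbx2(fl/?) and Tbx3(fl/?), so they had no Cre. They shared floxed alleles with the knockouts, and the label leaves 1 allele of each open. Presence of Cre, the changed Tbx18 allele and loss of Tbx2 and Tbx3 thus cannot be told apart in the ratios. Total RNA was made into dye-labelled cRNA and hybridised to 2 two-colour Agilent arrays, each with 1 knockout and 1 control RNA. The first array compared female ureters, with AlexaFluor647 on the knockout side, and the second compared male ureters, with AlexaFluor555 on that side. Sex and dye orientation therefore cannot be told apart. The sources used here give no number of embryos per RNA. Precision is limited by the number of arrays.

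Values are log2 ratios of knockout over control, given as the mean ± SD over the 2 pairs, and levels are normalised log2 intensities in the 4 RNAs. Between 64.3% and 71.6% of spots were well above background in each channel, and 0 were saturated. Of 20629 genes tested with limma, 384 (1.86%) rose and 374 (1.81%) fell from control to labelled knockout at a Benjamini-Hochberg adjusted p under 0.05. Tbx3 was lower in these ureters, at -1.09 ± 0.10 (SD, n = 2 pairs), and Tbx2 was higher, at 0.86 ± 0.12, so the Tbx2 probe did not follow the label. The sources used here do not say whether these probes fall within the deleted exons, and every direction below is that of the ureters labelled knockout. Tbx18, the locus that carries Cre, was at 0.15 ± 0.0011 and did not pass (limma, adjusted p = 0.379).

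Among the 34 HOX genes that could be tested, 2 rose and 0 fell. Both belong to paralogue group 13, Hoxd13 and Hoxa13, and Hoxd12, the sole group 12 gene tested, had the next largest ratio without passing. The RefSeq promoters of these 3 genes are shown because they are the members the comparison turns on. Each is given 5′ to 3′ on the gene's own strand for the 250 bases before the annotated start, in assembly GRCm38.p6. Capitals mark matches to the letters CCAAT and TATAAA on either strand. The windows are chr2:74667975-74668224 (plus strand) for Hoxd13, chr6:52260881-52261130 (minus strand) for Hoxa13 and chr2:74674763-74675012 (plus strand) for Hoxd12.
Hoxd13: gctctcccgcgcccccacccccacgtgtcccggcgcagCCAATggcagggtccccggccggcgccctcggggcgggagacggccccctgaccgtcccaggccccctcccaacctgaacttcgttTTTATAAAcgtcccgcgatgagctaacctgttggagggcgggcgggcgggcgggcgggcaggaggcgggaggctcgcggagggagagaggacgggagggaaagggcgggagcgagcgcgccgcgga
Hoxa13: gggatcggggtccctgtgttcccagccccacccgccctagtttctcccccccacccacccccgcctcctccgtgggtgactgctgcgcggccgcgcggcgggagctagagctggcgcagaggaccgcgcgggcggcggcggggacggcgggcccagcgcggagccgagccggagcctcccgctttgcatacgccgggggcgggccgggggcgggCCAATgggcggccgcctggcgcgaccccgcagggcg
Hoxd12: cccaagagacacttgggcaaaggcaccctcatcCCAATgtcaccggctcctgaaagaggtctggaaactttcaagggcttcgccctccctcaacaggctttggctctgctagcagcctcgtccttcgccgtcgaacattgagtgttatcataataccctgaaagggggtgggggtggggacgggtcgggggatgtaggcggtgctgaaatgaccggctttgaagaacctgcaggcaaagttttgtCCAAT

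The promoter of Hoxd13 held 2 overlapping TATAAA matches on opposite strands, beginning 124 and 126 bases before the start, and 1 CCAAT match 212 bases before it. The Hoxa13 promoter held 1 CCAAT match 36 bases before the start, and that of Hoxd12 held matches 217 and 5 bases before it. The letters GGTGTG, the short core of the sequence that T-box proteins bind, and the longer GGTGTGA that contains them were also searched on both strands. They were not in any of these 3 windows, which says only that these letters are absent there. RefSeq tables gave 24 promoters for 22 of the 38 members, each with 300 bases (250 before and 50 after the start). GGTGTGA was in 1 of these 24 (4.2%, Hoxd9) against 4.0% of all 32851 promoters of that length. GGTGTG was in 2 (8.3%, Hoxd9 and Hoxa2) against 19.0%. TATAAA was in 4 of the 24 (16.7%) against 13.6%, and CCAAT in 15 (62.5%) against 37.4%.

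HOX transcripts were widely detected in these ureters. Of the 38 members, 33 had most spots well above background in all 4 RNAs. All 10 members of the Hoxa cluster and all 9 of the Hoxd cluster were among them, with 8 of 10 in Hoxb and 6 of 9 in Hoxc. Hoxb13, Hoxc12 and Hoxc13 were not well above background in any RNA, and no ratio is given for them. These 3 genes lie at the posterior end of their clusters. Hoxb1 was well above background in the RNAs labelled with AlexaFluor555 alone, the control of the female pair and the knockout of the male pair, and was not tested either. Hoxc5, a central gene, passed the filter through the knockout channels alone, with 1 of 4 spots well above background in the male control, and had levels near background, at 7.162 and 7.065 (knockout and control, female pair) and 7.137 and 7.085 (male pair).

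**Figure D1:**
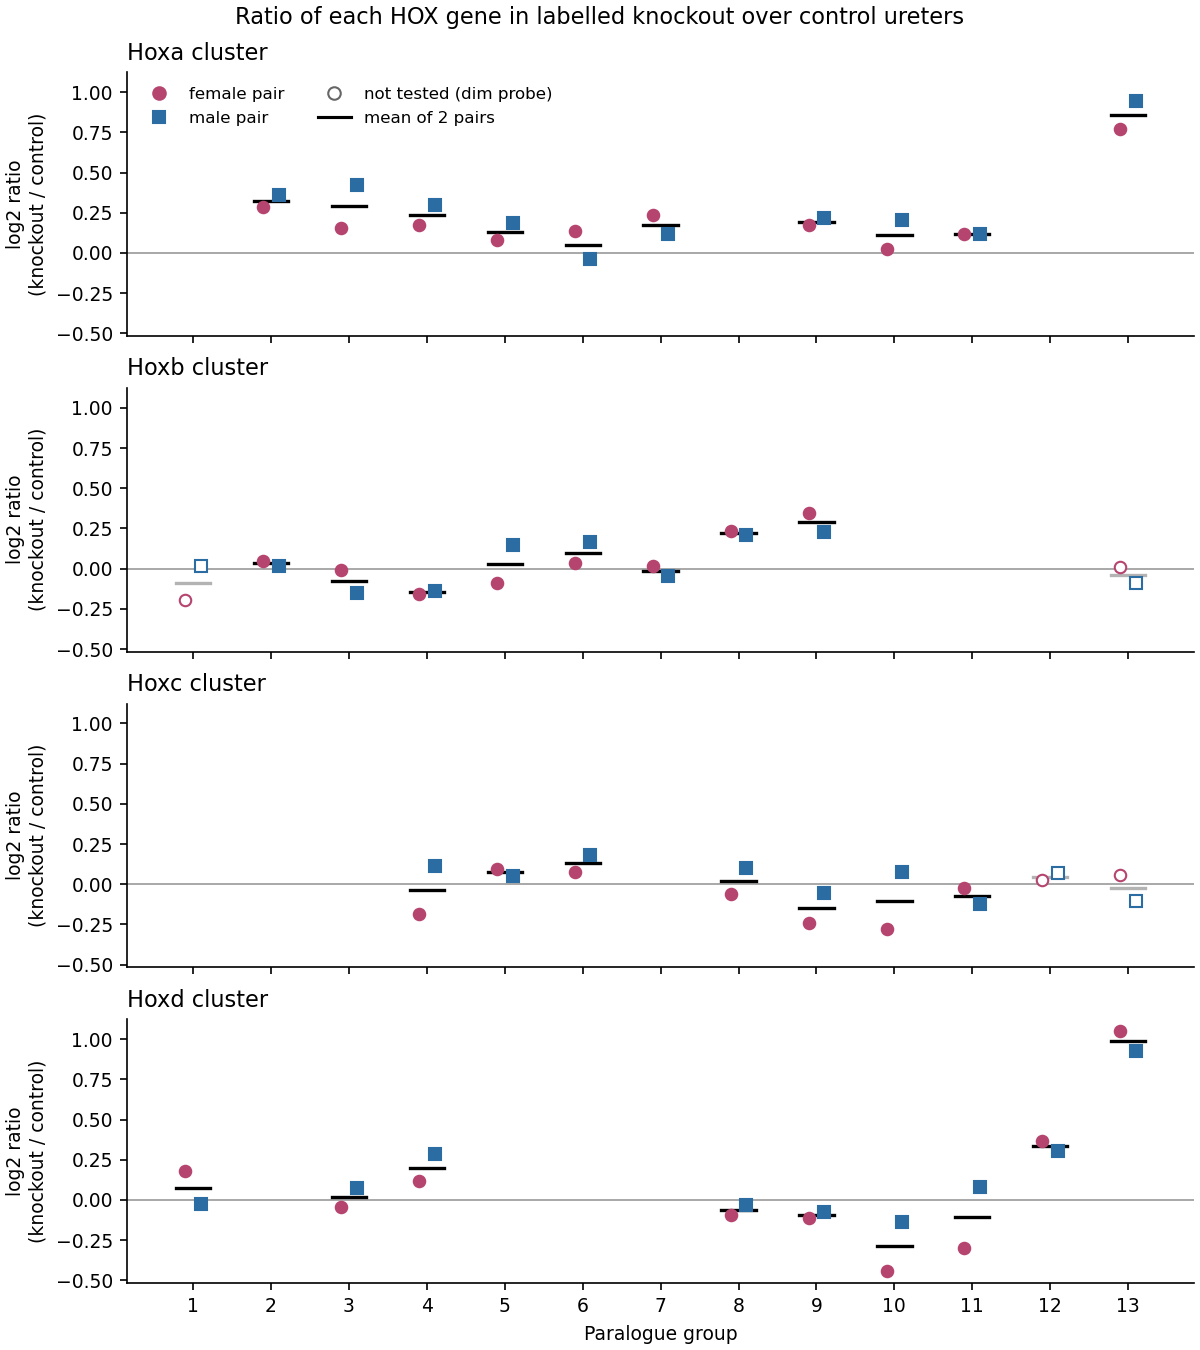
Log2 ratio of knockout over control (y axis) for the 38 HOX genes by paralogue group (x axis), with 1 panel per cluster. Circles are the female pair, squares the male pair, bars the mean of 2 pairs, and open symbols the 4 genes with dim probes that were not tested. Hoxa13 and Hoxd13, at 0.86 and 0.99, stand above the other genes of their clusters.

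Group 13 was measured through Hoxd13 and Hoxa13, the most 5′ genes of their clusters. The level of Hoxd13 was 10.77 in the female knockout RNA and 9.72 in its control, and 10.95 in the male knockout RNA and 10.02 in its control. Both knockout RNAs therefore lay above both controls. The female pair had a ratio of 1.05 and the male pair 0.92, which gave a mean of 0.99 ± 0.089 (SD, n = 2 pairs, limma adjusted p = 0.0012) or 1.98-fold, with a 95% interval from 0.82 to 1.16. Whether a value reflects the number of cells of a type or the RNA per cell cannot be told apart in whole ureters, here or below. Hoxd13 was 54th by size among the 384 rises.

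Hoxa13 had levels of 11.14 and 10.37 (knockout and control) in the female pair and 11.30 and 10.36 in the male pair. Here too both knockout RNAs were above both controls. The ratios were 0.77 and 0.94, with a mean of 0.86 ± 0.12 (SD, n = 2 pairs, limma adjusted p = 0.0026) or 1.81-fold. The 95% interval ran from 0.68 to 1.04. A second, dimmer probe of Hoxa13 gave 0.73 (female) and 0.81 (male), with a mean of 0.77 ± 0.051. Hoxa13 was 64th among the rises. Both group 13 genes kept their calls in each of the 13 alternatives of signal, normalization, filter, probe choice and variance model, with adjusted p-values up to 0.026 for Hoxd13 and 0.033 for Hoxa13.

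Hoxd12, the neighbour of Hoxd13, had levels of 11.11 and 10.75 (knockout and control) in the female pair and 11.05 and 10.75 in the male pair, so the groups did not overlap. Its ratio of 0.34 ± 0.043 (SD, n = 2 pairs) did not pass, at a limma adjusted p of 0.0527, and it passed under 3 of the 13 alternatives, with values from 0.33 to 0.37 over them. Hoxd11, next in the cluster, is a group 11 gene that acts with Hoxa11 and Hoxc11 in the metanephros. Its 2 probes differed. The brighter gave -0.30 (female) and 0.081 (male), with a mean of -0.11 ± 0.27, and the dimmer gave -0.25 and -0.34, with a mean of -0.29 ± 0.062. Neither probe passed (limma, adjusted p = 0.815, and 0.0840 for the dimmer probe with each probe counted by itself).

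Ratios at the 5′ end of the Hoxd cluster thus became smaller from gene to gene. Hoxd13 exceeded Hoxd12 by 0.68 (female) and 0.62 (male), on the log2 scale of the ratios. Hoxd12 exceeded Hoxd11 by 0.66 and 0.22 with the brighter Hoxd11 probe. The dimmer Hoxd11 probe was at -0.25 (female) and -0.34 (male), against 0.37 and 0.31 for Hoxd12. In the Hoxa cluster, where no group 12 gene exists, Hoxa13 exceeded its neighbour Hoxa11 by 0.74, with Hoxa11 at 0.12 in both pairs (mean 0.12 ± 0.0019, SD, n = 2 pairs). These steps were not tested, since the genes share the same 4 RNAs and were singled out for their ratios.

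**Figure D2:**
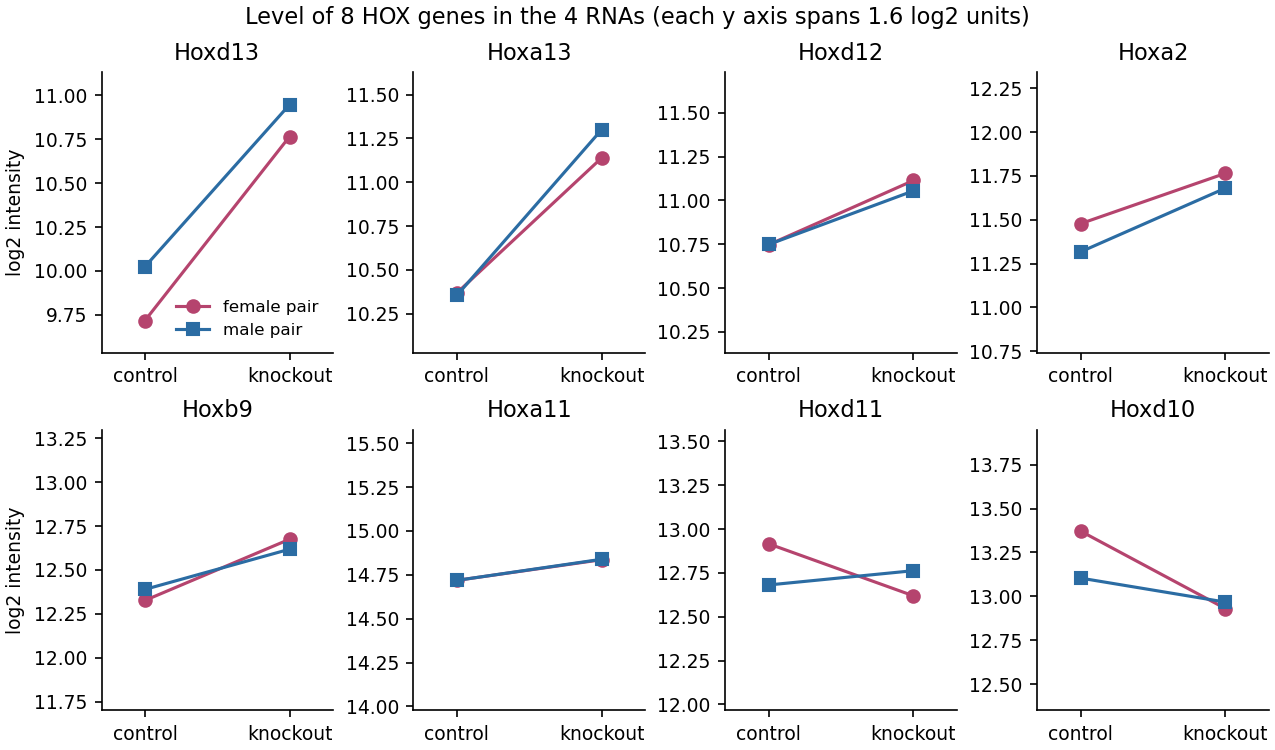
Level of 8 HOX genes (y axis, normalised log2 intensity, each axis spanning 1.6 units) in the control and knockout RNA of the female pair (circles) and the male pair (squares), lines joining the RNAs of 1 array. Hoxd13 rises from 9.72 to 10.77 and from 10.02 to 10.95, while the lines of Hoxd11 (brighter probe) slope down in the female and up in the male pair.

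The other posterior genes, of groups 9 to 11, had ratios on both sides of 0, and 0 of 10 passed. In group 11, Hoxc11 was at -0.074 ± 0.069 (SD, n = 2 pairs), beside Hoxa11 and Hoxd11 given above. In group 10, Hoxa10 was at 0.11 ± 0.12, Hoxc10 at -0.10 ± 0.25 and Hoxd10 at -0.29 ± 0.22. Hoxd10 had levels of 12.93 and 13.37 (knockout and control) in the female pair and 12.97 and 13.10 in the male pair, so both knockout RNAs were below both controls, but the size differed between pairs and it did not pass (limma, adjusted p = 0.191). In group 9, Hoxb9 was at 0.29 ± 0.085, with levels of 12.68 and 12.33 for females and 12.62 and 12.39 for males. The Hoxb9 groups did not overlap, and its adjusted p by limma was 0.0982. Hoxa9 was at 0.20 ± 0.030, or 0.11 by a dimmer probe, Hoxd9 at -0.095 ± 0.029 and Hoxc9 at -0.15 ± 0.13. Group medians were 0.92 for group 13, -0.074 for group 11, -0.10 for group 10 and 0.051 for group 9, against -0.0022 for all genes tested.

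The central genes, of groups 4 to 8, pattern the trunk. Of these, 15 were tested, 0 passed and the median ratio was 0.075, with 8 above 0 in both pairs, 2 below 0 in both and 5 of opposite sign. The values above 0 in both pairs were those of Hoxa4 at 0.24, Hoxb8 at 0.22, Hoxd4 at 0.20 and Hoxa7 at 0.18. Smaller ones were those of Hoxa5 at 0.13, Hoxc6 at 0.13, Hoxb6 at 0.099 and Hoxc5 at 0.075. Hoxc5 is counted here although it passed the filter through the knockout channels alone. Hoxb4, at -0.15 ± 0.014 (SD, n = 2 pairs), and Hoxd8, at -0.060 ± 0.044, were below 0 in both. The pairs pointed in opposite directions for Hoxa6, Hoxb5, Hoxb7, Hoxc4 and Hoxc8, whose means lay between -0.035 and 0.052.

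The anterior genes, of groups 1 to 3, are best known from the hindbrain and the branchial arches. Of 6 tested, 0 passed. Hoxa2 had levels of 11.76 and 11.48 (knockout and control) in the female pair and 11.68 and 11.32 in the male pair. Both knockout RNAs were above both controls, and the mean ratio of 0.32 ± 0.054 (SD, n = 2 pairs) had a limma adjusted p of 0.0606. Hoxa3 was at 0.29 ± 0.19, Hoxd1 at 0.077 ± 0.15, Hoxb2 at 0.034 ± 0.021 and Hoxd3 at 0.016 ± 0.086. The probes of Hoxb3 lay on different sides of 0, the brighter at -0.080 ± 0.098 and the dimmer at 0.013 ± 0.069, and neither passed.

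By cluster, the values were as follows, and differences between clusters were not tested. In Hoxa 9 of 10 genes were above 0 in both pairs and the median ratio was 0.19, with Hoxa6 as the gene of opposite signs. In Hoxb 4 of 8 were above 0 in both pairs (median 0.032), in Hoxc 2 of 7 (median -0.035) and in Hoxd 3 of 9 (median 0.016). With Hoxc5 left out by a filter on all channels, the Hoxc count was 1 of 6 and the total 17 of 33. Over all 34 members the count was 18 (52.9%), against 27.6% of all genes tested. The median was 0.076 in the mean of the pairs, 0.064 for females and 0.12 for males. The Hoxa count was 9 or 10 of 10 under the 10 alternatives of signal, normalization, filter and probe averaging in which it was counted. Neighbouring genes of 1 cluster and paralogues with related sequences are not independent of each other, and cross-hybridisation between paralogues was not tested, since probe sequences were not used here. Without groups 12 and 13, the 31 remaining genes had a median of 0.052 and ranged from -0.29 to 0.32. Of the 34 genes, 30 had a mean ratio within 0.3 of 0 on the log2 scale (88.2%), against 93.7% of all genes tested, and the median SD between pairs was 0.086 against 0.072.

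**Figure D3:**
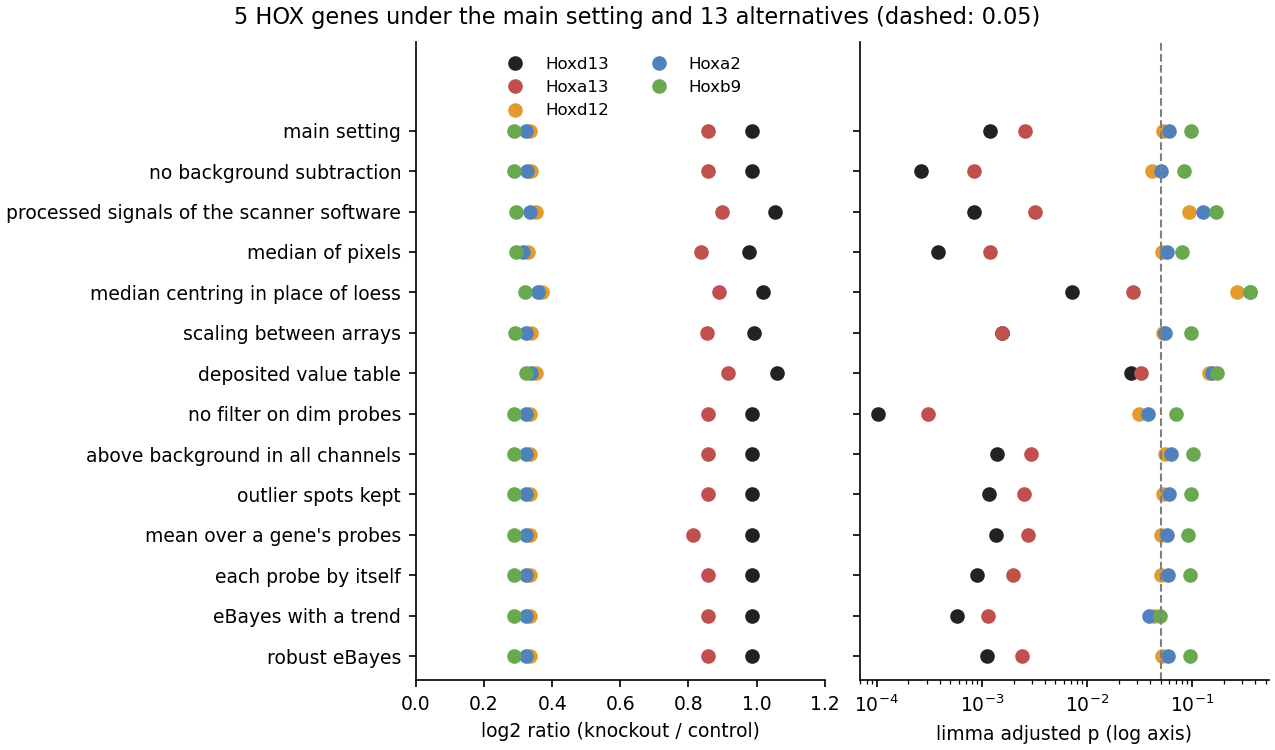
Log2 ratio of knockout over control (left) and limma adjusted p (right, log axis, dashed line at 0.05) of 5 HOX genes under the main setting and 13 alternatives. The ratios of each gene stay close together, and Hoxd13 and Hoxa13 are left of the dashed line in each row, while Hoxd12, Hoxa2 and Hoxb9 lie on both sides of it.

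Genes next to the clusters were read from a list of 20, of which 15 could be tested. Of these 1 rose and 0 fell, with a median of 0.023. The gene that rose was Evx1, a homeobox gene that adjoins Hoxa13. Its probe was well above background in 4 of 4 spots of each knockout RNA and 0 of 4 spots of each control RNA. Its levels were 7.31 and 6.50 (knockout and control) in the female pair and 7.60 and 6.79 in the male pair, a measured ratio of 0.81 ± 0.0018 (SD, n = 2 pairs, limma adjusted p = 0.0020). As the controls were not well above background, Evx1 was at least 1.38-fold higher, and it entered the test through the group where it was high. The bound sets the mean knockout level against the higher, on each array, of the control signal and the lowest signal well above background. The ratio was 2.59 with the scanner software's processed signals, and its call ended with the deposited value table, at 0.76 (limma, adjusted p = 0.152). Evx2, which adjoins Hoxd13, did not pass the filter on dim probes. On the other side of the Hoxa cluster Skap2 was at 0.16 and Snx10 at 0.19, and beside Hoxd Lnpk was at 0.12 and Mtx2 at -0.020. These 4 genes, chosen for their position, did not pass.

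Non-coding RNAs transcribed within the clusters had 5 tested members of 17 listed, 0 of them called, with a median of 0.046. Hoxa11os, antisense to Hoxa11, was at 0.28 ± 0.035 (SD, n = 2 pairs, limma adjusted p = 0.0930), and Hoxaas2 was at 0.24 ± 0.063 (limma adjusted p = 0.158). Both were above 0 in both pairs, as was Hoxa11 itself. Hottip, which lies beyond the 5′ end of the Hoxa cluster near Hoxa13, did not pass the filter on dim probes.

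The partners of HOX proteins on DNA are the PBX, MEIS and PREP proteins. Of their 9 genes, 0 passed, with levels above background in all 4 RNAs, and the median was -0.057. Pbx3 had the largest value, at -0.29 ± 0.0061 (SD, n = 2 pairs, limma adjusted p = 0.0788), and Meis1 was at -0.22 ± 0.13. Of 20 CDX factors and chromatin regulators tested, 0 passed, with a median of -0.022. Kdm6a, an H3K27 demethylase, was at 0.24 ± 0.23. Cdx2, Cdx4 and Cbx7 did not pass the filter on dim probes.

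In the retinoic acid pathway, 1 of 17 tested genes rose and 1 fell, with a median of 0.035. The gene that fell was Cyp26a1, an enzyme that breaks down retinoic acid, at -0.83 ± 0.018 (SD, n = 2 pairs, limma adjusted p = 0.00182). Its levels were 8.21 and 9.03 (knockout and control) in the female pair and 7.95 and 8.79 in the male pair, so both knockout RNAs were below both controls. The gene that rose was Cyp26b1, a related enzyme, at 0.38 ± 0.10 (limma adjusted p = 0.0434), and its call ended with median centring and with the deposited value table. Of 8 genes known to act with or under group 11 proteins in the metanephric mesenchyme, 1 rose and 0 fell, with a median of 0.17. Osr1, a transcription factor of the intermediate mesoderm, was at 0.43 ± 0.11 (limma adjusted p = 0.0301), and lost its call under the same 2 alternatives. In that list Six2 had ratios of -0.34 (female) and 1.11 (male), and Wt1 of -0.032 and 0.79. That list shares 6 of its 8 genes with the nephron markers below, and 2 of the 18 retinoic acid genes are also renal stroma markers.

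**Figure D4:**
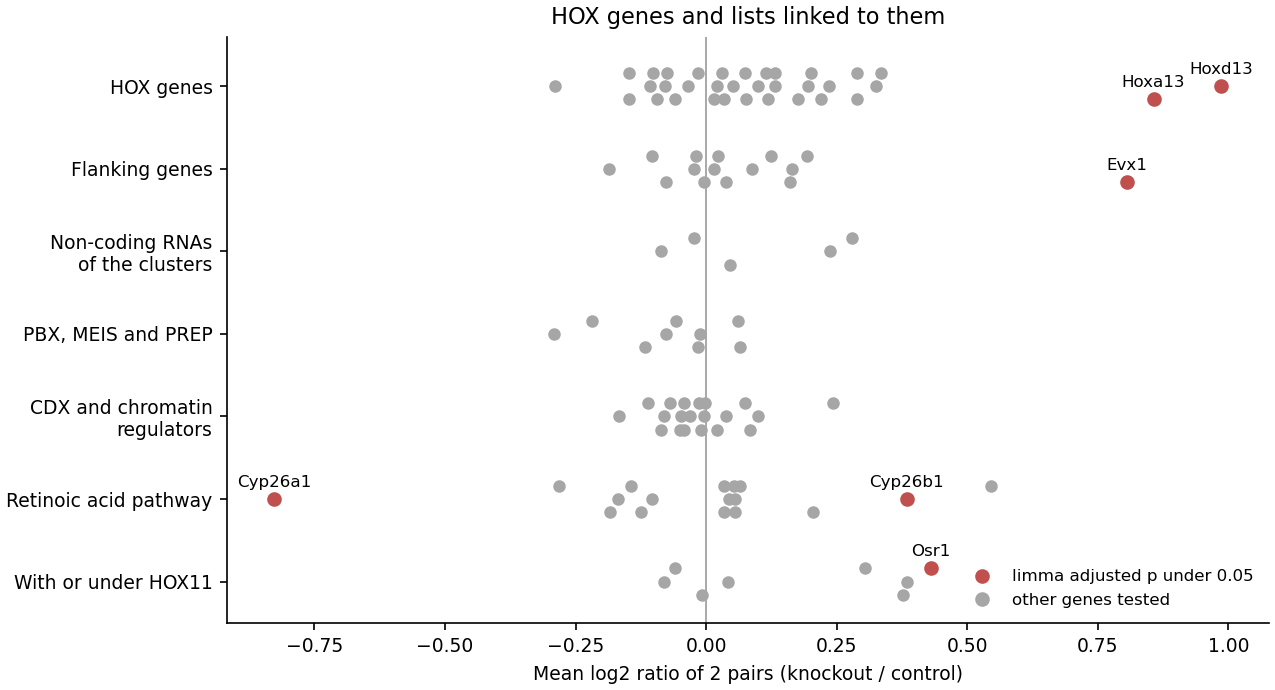
Mean log2 ratio over 2 pairs (x axis) of the HOX genes and of the genes of 6 lists linked to them (rows, 1 point per gene tested). Points past a limma adjusted p of 0.05 are drawn in red and named, and they are Hoxa13, Hoxd13, Evx1, Cyp26a1, Cyp26b1 and Osr1.

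Markers of the cell types that a dissected ureter could hold were measured beside the HOX genes. Smooth muscle genes fell, 8 of 10, with a median of -2.57, Actg2 at -3.55, Myh11 at -3.44, Cnn1 at -3.05 and Acta2 at -3.04. The log2 of their summed intensity was 15.86 in each knockout RNA and 17.62 and 17.96 in the controls. Markers of neural crest, glia and neurons had 4 rises among 11 and a median of 0.27, with Fabp7 at 0.71, Hand2 at 0.70, Prph at 0.69 and Dbh at 0.62. Their summed level was 15.62 to 15.70 in the knockouts and 15.62 in both controls. Hand2 and Dbh lost their calls with median centring and with the deposited value table, and Dbh also with robust eBayes.

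Of the 6 erythroid genes 1 rose, Hbb-b1 at 0.43, and the median was 0.32. Of these 6 genes, 4 were above 0 in both pairs. Hbb-y (0.11 and -0.39, female and male) and Hbb-bh1 (0.20 and -0.51) had opposite signs. The summed level was 19.29 to 19.49 in the knockouts and 19.10 to 19.29 in the controls. The Hbb-b1 call ended with median centring, the deposited value table and eBayes with a trend. Cartilage had 1 rise (Cnmd at 0.51) and 3 falls (Col9a3 at -0.54, Col2a1 at -0.50 and Col9a1 at -0.41) among 4 genes tested, with a median of -0.45. Its summed level was 15.49 in both knockouts and 15.82 to 15.98 in the controls. Col9a1 made up most of that sum, at 15.38 to 15.40 in the knockouts and 15.73 to 15.87 in the controls. Each of these 4 cartilage calls ended with median centring. The calls of Col9a3, Col2a1 and Col9a1 also ended with the deposited value table, and that of Col9a1 with the scanner software's processed signals. Skeletal muscle had 1 fall among 5 genes, Actc1 at -1.26, with a median of -0.29. Its summed level was 13.94 to 14.36 in the knockouts and 15.29 to 15.46 in the controls. Actc1 made up most of that sum, at 13.86 to 14.29 in the knockouts and 15.25 to 15.42 in the controls. Myod1, Myog, Myh3 and Ttn were dimmer, below 0 in both pairs, and did not pass. The Actc1 call ended with the deposited value table. Acan and Matn1 of cartilage, Ckm of skeletal muscle and Amh of the gonad did not pass the filter on dim probes. That filter needs spots well above background on both arrays, so a gene bright in 1 sex alone would fail it. Of the same lists, 4 genes of cartilage, 5 of skeletal muscle and 7 of gonad, adrenal and mesonephric duct did pass it.

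In 6 marker lists 0 genes passed. The median was -0.073 over 14 genes of urothelium, the ureter's epithelium (Upk1b at -0.29, Upk3a at 0.27), 0.020 over 12 genes of nephron progenitors and the early nephron (Six2 and Wt1, given above) and -0.16 over 6 of renal stroma (Foxd1 at -0.29, Rarb at -0.28). It was 0.14 over 8 genes of endothelium (Egfl7 at 0.32, Kdr at 0.30). Over 7 genes of immune cells it was 0.20 (Lyz2 at 0.32, Ptprc at 0.29). For 7 of gonad, adrenal and mesonephric duct it was 0.0022 (Dhh at 0.11, Sox9 at -0.11). The pairs of Egfl7 pointed in opposite directions, at -0.20 (female) and 0.85 (male). So did those of Sox9, at 0.24 (female) and -0.46 (male). Summed levels in these 6 lists differed by at most 0.33 between the RNAs of a pair. Such sums mostly follow the brightest probes. The nephron sum of the male pair was 16.08 (knockout) and 15.99 (control), with Six2, a dimmer gene, at 1.11 in that pair. All 10 smooth muscle and all 14 urothelium markers were bright enough to be tested. The part of any of these cell types in the values of the HOX genes was not tested.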

How the data were processed

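The submitters' processing notes name Agilent Feature Extraction 10.7.3.1 for the two-colour arrays. As deposited, the scanner files give spot and local background intensity per channel, not normalized, beside processed intensities that the software background-subtracted and dye-normalized, per the file headers. The deposited table of values holds a signed fold per probe, made in a way that the sources used here do not give. Its log2 values had correlations of 0.965 and 0.969 with the ratios below over 24335 bright probes, its medians were 1, and 33.7% and 34.1% of its values were exactly 1.

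Intensities were corrected with normexp (offset 50) and normalized by loess within arrays, without non-uniform spots (186 and 223). The 4 spots of a probe were averaged (median SD between spots 0.0693 and 0.0630). Levels per RNA were scaled between arrays with Aquantile. Of 39396 probes with a ratio on both arrays, 25934 had more than 0.5 of spots well above background in both knockout or both control channels. Symbols came from a RefSeq table of GRCm38.p6 for 28328 of the 39429 probes on the array, while 11101 stayed under their original name. The brightest probe stood for a gene. The test for 20629 genes used limma 3.58.1 (lmFit, eBayes, Benjamini-Hochberg) under R 4.3.3. The residual degrees of freedom were 1 and those of the prior 5.21. The p-values thus rest mostly on spread pooled over genes, and cover only these samples, whose separate origin the labels do not detail. The procedure was tested on simulated data. Alternatives were other signals, normalizations, filters, probe rules, variance models, thresholds and each replicate left out.

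The members and lists were chosen with earlier results of these data known. Every member was to be named, with up to 4 called genes of each list, or the 2 largest where none passed. For 2 further genes that these rules take, no value is reported here.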

Additional observations from a re-analysis of the deposited data

Results flagged for a closer look

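Of the 34 HOX genes tested, 9 (26.5%) had ratios of opposite sign in the 2 pairs, against 44.2% of all genes tested. None of the 9 was called, and the largest size in either pair was 0.30 on the log2 scale. There was 1 pair per sex and the dyes were exchanged between the pairs, so the differences were not tested and sex and dye cannot be told apart. The male pair was higher for 6 of the 9. Among these, Hoxd11 had a difference of 0.38 (male minus female, log2), Hoxc10 of 0.35, Hoxc4 of 0.30, Hoxb5 of 0.23, Hoxc8 of 0.16 and Hoxd3 of 0.12. For Hoxd11 the dimmer probe was below 0 in both pairs. The female pair was higher for the other 3, where the difference was -0.21 for Hoxd1, -0.17 for Hoxa6 and -0.067 for Hoxb7.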

How the results depend on the processing

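The count of all genes past the threshold, 758 in the report, was 236 with median centring, 285 with the deposited value table, 1146 at an adjusted p under 0.1 and 311 under 0.01. The count of HOX genes past it, 2 in the report, was 4 with no filter on dim probes (Hoxd12 and Hoxa2 added) and 5 with eBayes with a trend and at an adjusted p under 0.1 (Hoxd12, Hoxa2 and Hoxb9 added). The cause was not tested. In the other alternatives it was 2 or 3, and all called members were above 0. The HOX median was 0.064 and 0.12 with 1 pair left out in turn. No called ratio named here reversed. Each array holds both RNAs of its pair, so the fit on ratios is itself paired. Signals near background limit Hoxc5, Evx1 and Fgf8.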

Other observations

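Genes of the genital tubercle, cloaca and bladder were looked at because Hoxa13 and Hoxd13 are also expressed there, in a list of 8 put together after the HOX values were seen. Of the 6 that could be tested, 1 rose, against 1.86% of all genes tested. The median was 0.20, against -0.0022 for all genes tested, with 3 genes above 0 and 2 below 0 in both pairs. The gene that rose was Pitx1, a homeobox gene of hindlimb and caudal mesoderm. Its levels were 9.30 and 8.32 (knockout and control) in the female pair and 9.40 and 8.20 in the male pair. Both knockout RNAs lay above both controls, and the ratio was 1.09 ± 0.15 (SD, n = 2 pairs, limma adjusted p = 0.00122). Tbx4 was at 0.37 and Isl1 at 0.35, above 0 in both pairs but not past the threshold (limma, adjusted p = 0.113 and 0.086). Dlx5 was at -0.21, Wnt5a at -0.17 and Fgf8 at 0.054 (-0.25 for females and 0.36 for males). Fgf8 passed the filter through the knockout channels alone, with 0 of 4 spots well above background in the male control. Its levels in the male pair were 7.34 (knockout) and 6.98 (control). Tbx5 and Dlx6 did not pass the filter on dim probes. The part of neighbouring tissue in these values was not tested.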
